A study of Mus musculus with 12 samples.

Results

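Transcript levels were compared between mouse embryos homozygous for a neural crest-specific Eftud2 mutation and their heterozygous controls at embryonic day 9.0 (E9.0). The comparison was chosen from the labels, as the 3 libraries titled homozygous (mutant) at E9.0 against the 3 titled heterozygous (control) at E9.0, which are 6 of the 12 libraries of the series. The other 6 are the same genotypes at E9.5. They entered the choice of tested genes, the scaling, the estimate of the spread and a comparison of the stages. The genotype is labelled Eftud2-/- in the homozygous and Eftud2+/- in the heterozygous libraries, the strain C57Bl/6 in both, and no wild-type library is listed, so the controls carry the mutation on 1 copy. The sample titles call the change cell-specific, the text on the series' design gives neural crest as the cells, and neither names what drives the deletion. On the material they differ: one field has neural crest cells, another cranial nerve ganglia and the protocol embryo heads. Somite numbers and the embryos per library are not given, so p-values measure the spread between these libraries, which may be technical.

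Eftud2 encodes a GTP-binding protein in the U5 snRNP, a particle that joins U4/U6 in the tri-snRNP and helps to activate and disassemble the spliceosome, the machine that removes introns. Changes in the human gene cause mandibulofacial dysostosis with microcephaly, and the series links the mouse model to mis-splicing of Mdm2 and to p53. The transcription factor p53 is held low by Mdm2, a ubiquitin ligase that is itself a p53 target, and once stabilised it switches on genes of growth arrest, cell death, repair and metabolism. Neural crest cells leave the dorsal neural tube at these stages and form much of the face and, with placodes, the cranial ganglia.

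Depth was 20529891, 19810025 and 24302660 counts with the heterozygous and 13914543, 16590999 and 16037430 counts with the homozygous genotype. A single row, the 45S ribosomal RNA precursor Rn45s, took 37.4% of heterozygous replicate 1 and between 6.05% and 16.2% of the other 5, so levels are given as CPM, counts scaled to a common library size that TMM corrects for composition. Crest markers were present in all 6 libraries (summed level 1356 to 1481 CPM), but so were neural progenitor (2457 to 2667 CPM), endothelial (299 to 365 CPM), primitive erythroid (554 to 1222 CPM) and heart muscle markers (78.1 to 393 CPM), and the libraries are therefore described as mixed head tissue. Heterozygous replicate 1 and homozygous replicate 1 showed Y-linked transcripts with Xist at or below 0.220 CPM, homozygous replicate 3 showed Xist at 453 CPM with Y-linked genes at 0.0675 CPM, and the other 3 showed both. Signs of background also moved with genotype. Olfactory receptor genes, 1125 rows that this tissue is not known to use, summed to 3.89, 3.59 and 7.99 CPM in heterozygous and 8.79, 14.4 and 19.8 CPM in homozygous libraries. At a common depth of 12077204 counts, 17215, 17166 and 17878 rows were detected in heterozygous and 18348, 18794 and 19552 in homozygous libraries. The part of these signs in the results was not tested.

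Eftud2 (chr11:102838473-102880985 on GRCm38, minus strand), the targeted gene, was at 302, 275 and 279 CPM in the heterozygous libraries and 236, 234 and 232 CPM in the homozygous libraries. All 3 homozygous libraries lay below the heterozygous ones, at a fold of only 1.22 (log2 fold change −0.29 ± 0.05, edgeR adjusted p 0.0193; here and below ± after a log2 value is the standard error). The values go with the labels in direction, but a count per gene does not show which exons were deleted. The call was lost without heterozygous replicate 1 (adjusted p 0.0645), homozygous replicate 1 (0.0601) or homozygous replicate 3 (0.0713).

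Across the genome, 87 of 14810 tested genes differed between the genotypes at E9.0, which is 0.587% (edgeR quasi-likelihood test, Benjamini-Hochberg adjusted p under 0.05, "called" below). Of these 64 were higher in homozygous libraries (0.432%) and 23 lower (0.155%), and 37 changed by more than 2-fold, 32 of them upward. The rises reached larger folds, as the plot of all genes shows: rises outside the p53 lists had a median log2 change of 0.62 and those on them 1.15, against −0.54 for the falls. The median over all tested genes was −0.0043. Scaled by total counts alone, which moved that median to 0.19, 75 genes were higher and 3 lower, and with Rn45s left out of the totals 91 and 14. Without heterozygous replicate 2 the count was 39 and without homozygous replicate 3 it was 38, while 34 of the 87 (30 higher, 4 lower) were called in each of the 6 leave-one-out fits. For a single gene an exact permutation test of 3 against 3 cannot go below p 0.1, and groups that do not overlap reach that value. In all, 1343 genes (9.07%) had every homozygous library above every heterozygous one, and 1215 (8.2%) every one below.

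**Figure D1:**
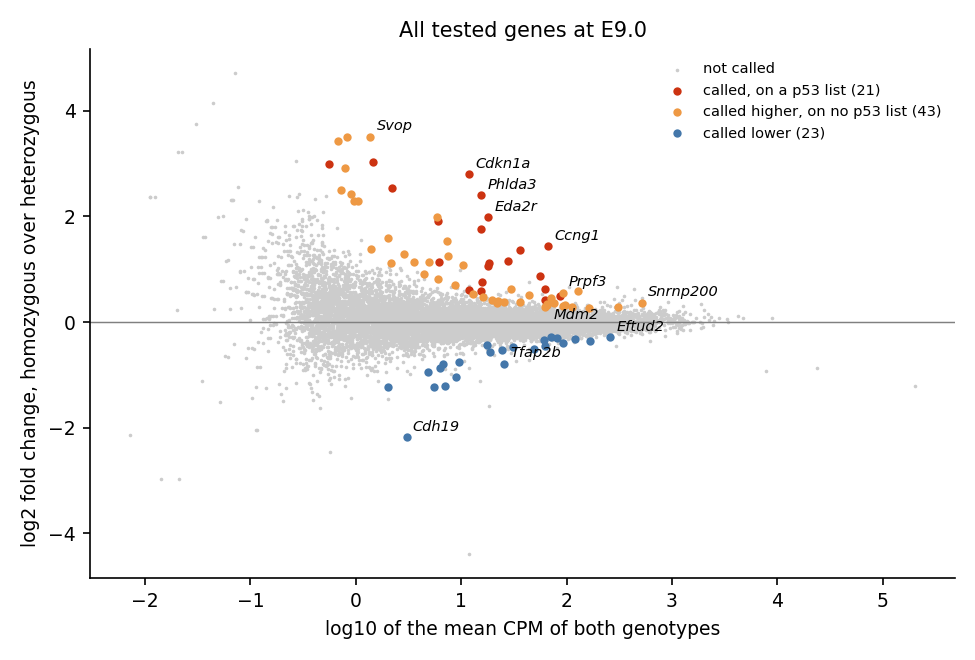
Log2 fold change at E9.0 (homozygous over heterozygous, vertical axis) of all 14810 tested genes against log10 of the mean CPM of both genotypes (horizontal axis), 1 point per gene. The 64 higher genes (red on a p53 list, orange on none) reach farther from 0 than the 23 lower ones (blue), and uncalled genes of low level (grey) lean upward.

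A share of the known p53 targets rose. Of 81 genes on 5 lists of p53 targets, 76 passed the filter on low counts and 21 were called, all higher in homozygous libraries, or 27.6% against 0.432% of all tested genes. The groups did not overlap, homozygous above, for 39 of the 76 (51.3%, against 9.07% of all), and the median log2 fold change was 0.27 against −0.0043. These 5 lists, like the other gene lists below, were chosen with earlier results of these data known. Such shares therefore describe the values and carry no test. Taken library by library against the heterozygous mean, the median of the 76 was 0.27, 0.24 and 0.29 in homozygous replicates 1 to 3 and between −0.01 and 0.00 in the heterozygous libraries. Calls of p53 genes numbered 17 to 21 in the 6 leave-one-out fits, and the median stayed between 0.25 and 0.30. Homozygous replicate 3 was the highest of its group for 17 of the 21 genes and replicate 2 the lowest for 16, against 35.4% and 33.6% of all genes with at least 10 counts.

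The promoters of these genes were searched for the p53 response element, which is 2 adjoining motifs of 10 bases, in the RefSeq window of 250 bases before to 50 after each start site (GRCm38.p6). The consensus reads the same on both strands, so 1 search covers both, and the core C and G of each motif had to be intact. The sequences are shown so that the matches at Cdkn1a, Ccng1, Gtse1, Zfp365 and Bbc3 can be read letter by letter. These are the called p53 genes with up to 3 mismatches, and binding was not tested. Capitals mark the element, read 5′ to 3′ on the strand of the gene, with 5 flanking bases in lower case.
Cdkn1a, chr17:29090928-29090947, plus strand, 1 mismatch: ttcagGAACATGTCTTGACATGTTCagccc
Ccng1, chr11:40755462-40755481, minus strand, 1 mismatch: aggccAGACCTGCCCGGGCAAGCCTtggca
Gtse1, chr15:85859945-85859964, plus strand, 1 mismatch: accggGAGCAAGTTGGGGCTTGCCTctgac
Zfp365, chr10:67912706-67912725, minus strand, 2 mismatches: tagcaAGACTAGGCTGGGCAAGACTggcac
Bbc3, chr7:16309486-16309505, plus strand, 3 mismatches: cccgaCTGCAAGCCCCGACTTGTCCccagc

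An element with at most 1 mismatch lay in 3 of the 16 called p53 genes that have a promoter in the table (18.75%), against 22 of all 27025 gene symbols with a promoter (0.0814%). Each symbol counted once, by its best match. With up to 2 mismatches it was 4 of 16 (25%) against 0.392%, and with up to 3 it was 5 of 16 (31.25%) against 1.63%. Over all 61 tested genes of the p53 lists with a promoter, called or not, the shares were lower. They were 6.56%, 11.5% and 21.3% with up to 1, 2 and 3 mismatches. Among the 32 called rises outside the p53 lists with a promoter, 0 had an element with up to 2 mismatches and 2 had one with 3, and among 16 called falls 0 had any. The lists were written from known p53 targets, so a share above that of all gene symbols with a promoter is a property of the lists. A match is a run of letters and not a shown binding site, and a window without one says nothing on p53, whose elements often lie in introns.

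In the feedback around p53 itself, 3 of 9 tested genes rose. Ccng1, cyclin G1, which brings a phosphatase to Mdm2, was at 27.4, 39.0 and 40.9 CPM in the heterozygous libraries and 102, 95.7 and 94.3 CPM in the homozygous libraries. Its lowest homozygous library lay far above the highest heterozygous one, and the rise was 2.70-fold (log2 1.43 ± 0.11, edgeR adjusted p 9.15e-06). Trp53inp1, which promotes p53 activity after stress, was at 14.5, 22.2 and 23.8 CPM in the heterozygous libraries and 54.1, 52.4 and 50.9 CPM in the homozygous libraries, again with no overlap (1.36 ± 0.14, edgeR adjusted p 0.000141). Mdm2 rose less, 52.6, 52.7 and 55.5 against 70.6, 71.2 and 73.9 CPM, but with the 3 libraries of each genotype close together (0.42 ± 0.06, edgeR adjusted p 0.00321). All 3 calls were kept in every leave-one-out fit. Mdm4, the partner of Mdm2, and Ppm1d, a phosphatase that damps p53, were not called, at log2 values of −0.04 ± 0.06 and 0.08 ± 0.07, and neither was Wsb1 (−0.03 ± 0.10). The other 3 uncalled members were higher in value. Rchy1, a ubiquitin ligase of p53, had every homozygous library above every control (0.21 ± 0.08, edgeR adjusted p 0.285), as had the noncoding RNA gene Trp53cor1 at low level (0.147, 0.161 and 0.215 against 0.751, 0.458 and 0.540 CPM, edgeR adjusted p 0.256), while the low values of Trp73 overlapped (adjusted p 0.326). Uncalled members are named here after their values were seen. Trp53 was at 139, 110.4 and 102 against 122, 113 and 129 CPM, and the groups overlapped (0.05 ± 0.09, edgeR adjusted p 0.85). Its log2 value changed sign, to −0.04, without heterozygous replicate 3. Counts per gene do not separate the splice forms of Mdm2.

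Of 14 tested genes of growth arrest 5 rose, led by Ptprv and Cdkn1a. Cdkn1a, which encodes the cyclin-dependent kinase inhibitor p21, was at 2.35, 2.84 and 3.57 CPM in the heterozygous libraries and 18.8, 12.9 and 30.9 CPM in the homozygous libraries, a 6.94-fold rise (log2 2.80 ± 0.29, edgeR adjusted p 0.000371). The homozygous libraries differed among themselves, with replicate 3 more than 2 times as high as replicate 2, yet each lay far above every control. Ptprv, a receptor tyrosine phosphatase induced by p53 in mice, had means of 0.329 ± 0.140 and 2.61 ± 1.39 CPM (n = 3 each, SD; 3.03 ± 0.49, edgeR adjusted p 0.00618) and showed the same order of homozygous libraries. Plk2, a polo-like kinase, was at 39.4, 40.8 and 37.2 against 69.4, 64.9 and 81.0 CPM (0.87 ± 0.11, edgeR adjusted p 0.000583). Gtse1, a microtubule-bound protein that opposes p53 in the G2 phase, was at 50.4, 47.8 and 47.9 against 76.2, 64.9 and 84.2 CPM (0.62 ± 0.08, edgeR adjusted p 0.000773), and Btg2, an antiproliferative factor, at 10.8, 12.7 and 13.3 against 18.8, 18.03 and 18.7 CPM (0.58 ± 0.09, edgeR adjusted p 0.00587). None of these groups overlapped, and the 5 calls were kept in each of the 6 leave-one-out fits. The 9 members that were not called ranged from −0.23 for E2f7 to 0.48 for Ier3 in log2 fold change.

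Of 16 tested genes of cell death 7 rose. Phlda3, which blocks the survival kinase Akt, was at 4.26, 4.23 and 5.97 CPM in the heterozygous libraries and 22.9, 19.8 and 35.5 CPM in the homozygous libraries, 5.30-fold higher (log2 2.41 ± 0.21, edgeR adjusted p 8.46e-05). Eda2r, a receptor of the tumour necrosis factor family, was at 5.21, 7.50 and 8.72 against 28.7, 27.2 and 30.9 CPM, so that the homozygous libraries nearly coincided at 3.96-fold over the controls (1.99 ± 0.15, edgeR adjusted p 9.15e-06). Pmaip1, or Noxa, a BH3-only protein that frees Bax and Bak, was at 3.74, 3.32 and 4.43 against 10.4, 7.61 and 7.63 CPM (1.14 ± 0.16, edgeR adjusted p 0.0017). The death receptor Fas had 0, 2 and 5 counts in the heterozygous and 7, 20 and 20 in the homozygous libraries, a rate ratio of 8.18 (95% exact interval 3.68 to 21.5, counting error only; edgeR adjusted p 0.0183). Smaller rises were those of the TRAIL receptor Tnfrsf10b (0.76 ± 0.14, edgeR adjusted p 0.0193), of Bbc3, or Puma (0.61 ± 0.13, edgeR adjusted p 0.0479), and of Zmat3, an RNA-binding zinc finger protein (0.49 ± 0.09, edgeR adjusted p 0.0193).

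Phlda3, Eda2r and Pmaip1 kept their calls in all 6 leave-one-out fits. The other 4 did not: Fas lost its call without heterozygous replicate 2 or homozygous replicate 2 or 3, Tnfrsf10b without heterozygous replicate 1 or 2 or homozygous replicate 1 or 3, and Bbc3 and Zmat3 without any library but homozygous replicate 2. In those fits the log2 values ran from 2.58 to 3.94 for Fas, 0.68 to 0.91 for Tnfrsf10b, 0.45 to 0.75 for Bbc3 and 0.43 to 0.61 for Zmat3, with edgeR adjusted p up to 0.124, 0.145, 0.246 and 0.126. Bax, the effector that Noxa and Puma act on and named after its value was seen, had every homozygous library above every control (55.0, 51.4 and 54.1 against 64.0, 64.0 and 72.2 CPM) but was not called (0.32 ± 0.07, edgeR adjusted p 0.0625).

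Of 24 tested genes of metabolism and stress 6 rose. Slc19a2, a thiamine transporter, was at 6.09, 7.13 and 7.91 CPM in the heterozygous libraries and 21.6, 19.8 and 30.9 CPM in the homozygous libraries (log2 1.75 ± 0.15, edgeR adjusted p 2.49e-05). Ddit4l, an inhibitor of mTORC1 signalling, was at 2.86, 2.36 and 2.49 against 9.02, 8.24 and 11.5 CPM (1.91 ± 0.16, edgeR adjusted p 9.15e-06). Both had replicate 3 as the highest homozygous library, and no control came near the homozygous range. Tap1, the peptide transporter that loads MHC class I, also rose and had a heterozygous mean of 0.627 ± 0.273 and a homozygous mean of 3.82 ± 1.49 CPM (n = 3 each, SD; 2.54 ± 0.36, edgeR adjusted p 0.00165). The sestrin Sesn2, which restrains mTORC1 and also stands on the list of the ATF4 stress response, was at 17.5, 15.97 and 18.6 against 33.9, 32.3 and 49.4 CPM (1.15 ± 0.13, edgeR adjusted p 0.000223). The zinc finger gene Zfp365 (1.11 ± 0.13, edgeR adjusted p 0.000268) and the adenylate kinase gene Ak1 (1.06 ± 0.11, edgeR adjusted p 6.34e-05) rose to 2.16-fold and 2.08-fold. All 6 calls were kept in every fit without 1 library. Sesn1, the paralog of Sesn2, was not called and pointed the other way (−0.16 ± 0.09, named after its value was seen), and Sesn2 was the only call among 21 tested genes of the ATF4 list, whose median was 0.05.

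The list named for DNA repair, which also holds genes of other roles such as Dcxr, was the only p53 list without a call, 0 of 13 with a median of 0.07. Dcxr, a carbonyl reductase, and Polk, a translesion polymerase, had its smallest p-values, at 0.98 ± 0.22 (edgeR adjusted p 0.064) and 0.50 ± 0.12 (0.0894), and neither overlapped between the groups. The plot of p53 genes by library shows how far the 21 called members stood from the controls.

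**Figure D2:**
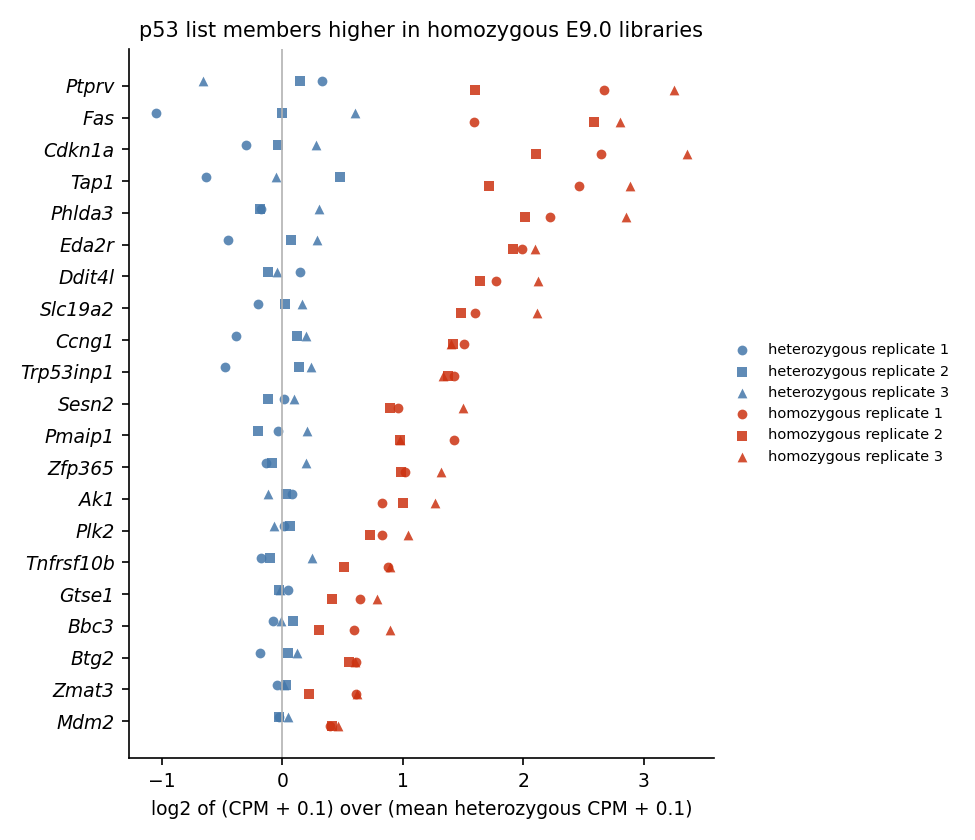
Each of the 21 called p53 genes in the 6 E9.0 libraries (blue heterozygous, red homozygous, 1 symbol per replicate), as log2 of CPM plus 0.1 over the heterozygous mean plus 0.1. All red symbols lie to the right of the blue ones of the same gene, from about 3 log2 units for Ptprv and Fas to 0.42 for Mdm2 in the fitted change, and the triangle of homozygous replicate 3 is the rightmost for 17 genes.

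The rises at E9.0 were set beside the same contrast at E9.5, where 280 genes were called (1.89%) and other libraries were used. All 21 called p53 genes were also positive at E9.5, but with a median of 0.48 against 1.15, and 7 of them were called there. The difference of the genotype effect between the stages was negative for each of the 21, and it passed the threshold for 3, out of 10 genes in the whole table (0.0675%). These were Phlda3, with a log2 effect of 2.41 ± 0.21 and, at E9.5, of 0.48 ± 0.18, Slc19a2 (1.75 ± 0.15 and 0.44 ± 0.14) and Ccng1 (1.43 ± 0.11 and 0.46 ± 0.10), each with an interaction adjusted p of 0.0213 in edgeR. For all 3 the heterozygous mean was higher at E9.5 than at E9.0, given without a test: that of Ccng1 was 35.7 ± 7.31 at E9.0 and 76.4 ± 5.14 CPM at E9.5 (SD, n = 3 each), while its homozygous level was 97.3 ± 4.05 and 105 ± 5.88 CPM. For Mdm2 the values were 0.42 ± 0.06 and 0.03 ± 0.06, and the difference was not called (adjusted p 0.18). Among all 64 rises, 60 were positive at E9.5 and 13 called, and the stage difference was negative for all 64. The genes were picked for their p at E9.0, so these signs are a description and carry no test. Of the 23 falls, 22 were negative at E9.5 and 12 called, with a median of −0.43 against −0.54, and the stage difference was called for 0 of them (lowest edgeR adjusted p 0.181).

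**Figure D3:**
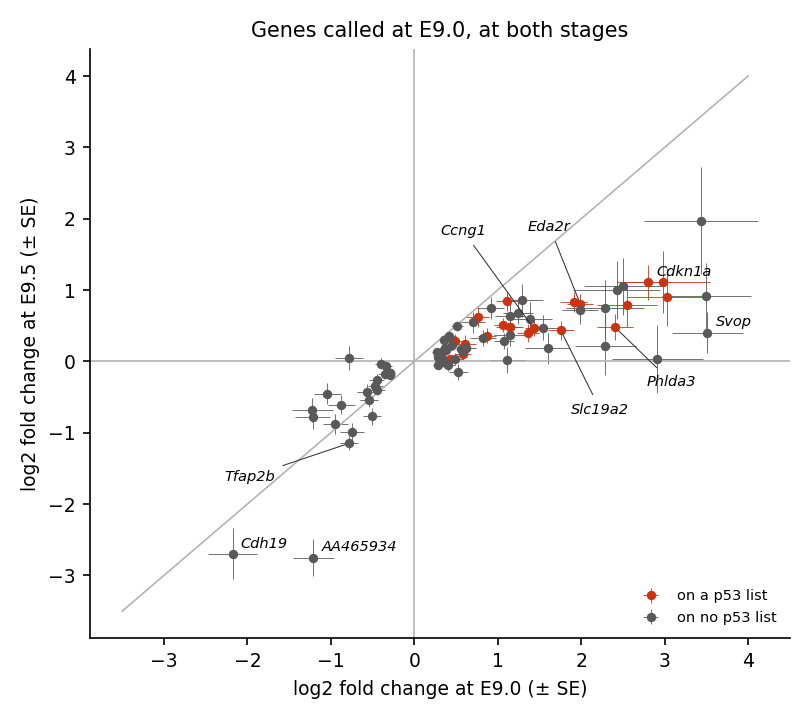
Log2 fold change of the 87 genes called at E9.0 (horizontal axis) against that at E9.5 (vertical axis), with standard errors; the diagonal marks equal change. All 64 rises lie below the diagonal, with Phlda3 at 2.41 and 0.48, while Cdh19 and Tfap2b lie at or past it on the side of the falls.

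Proteins of the splicing machinery were examined because Eftud2 is one of them. Of 16 tested genes of the U5 snRNP and tri-snRNP, 3 rose, Eftud2 fell, and 12 had every homozygous library above every control (75.0%), against 9.07% of all genes. Prpf3, a U4/U6 protein of the tri-snRNP, was at 75.2, 71.6 and 75.2 CPM in the heterozygous libraries and 110.1, 105 and 111 CPM in the homozygous libraries. Both groups were tight, and the gap of 1.47-fold was kept in every leave-one-out fit (log2 0.56 ± 0.05, edgeR adjusted p 3.55e-05). Snrnp200, the helicase that unwinds U4 from U6 under the control of Eftud2, was at 447, 453 and 449.7 against 577, 566 and 601 CPM (0.37 ± 0.06, edgeR adjusted p 0.0111) and lost its call without heterozygous replicate 2 or homozygous replicate 3 (adjusted p up to 0.0717). Sart1, which is needed to assemble the tri-snRNP, was at 152, 139 and 149 against 169.7, 173 and 189 CPM (0.28 ± 0.06, edgeR adjusted p 0.0471) and lost its call in each of the 6 fits. Prpf8, which binds Eftud2 directly, was not called (0.24 ± 0.08, edgeR adjusted p 0.233). The median of the list was 0.13, and between 0.11 and 0.33 over the other scalings and fits.

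The lists of other splicing factors held no call: 0 of 35 core spliceosome genes (median 0.09, with 11 genes, or 31.4% against 9.07% of all, without overlap above), 0 of 19 SR proteins and their kinases (median 0.00) and 0 of 18 genes of nonsense-mediated decay (median 0.05). The smallest p-values were those of U2af1 (0.20 ± 0.05) and Snrpd2 (0.23 ± 0.06, edgeR adjusted p 0.11 for both), Srsf11 (0.22 ± 0.05, 0.0766) and Srpk1 (−0.20 ± 0.05, 0.114), and Eif4a3 (0.20 ± 0.06, 0.171) and Upf3a (0.18 ± 0.08, 0.343). Other called genes outside the lists were chosen after their values were seen. Smndc1, a splicing factor needed for spliceosome assembly, was at 61.4, 59.7 and 59.8 against 81.4, 83.4 and 82.7 CPM (0.45 ± 0.05, edgeR adjusted p 0.000179). Its groups were well apart, and the call was kept in all 6 fits without 1 library. The export adaptor gene Alyref (0.28 ± 0.06, edgeR adjusted p 0.0479) and the cleavage factor gene Cstf2t (0.29 ± 0.06, edgeR adjusted p 0.0348) rose and the RNA-binding protein gene Taf15 fell (−0.40 ± 0.08, edgeR adjusted p 0.0226). Alyref and Cstf2t lost their calls in each of those 6 fits and Taf15 in 4, without heterozygous replicate 2 or 3 or homozygous replicate 2 or 3 (adjusted p up to 0.261, 0.117 and 0.128).

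Among the called genes, the fall with the largest fold was that of Cdh19, a cadherin of Schwann cell precursors and crest glia. It was at 3.74, 5.79 and 5.42 CPM in the heterozygous libraries and 0.827, 1.55 and 0.878 CPM in the homozygous libraries. Every homozygous library lay below the lowest control, with the group 4.53-fold lower in the fit (log2 −2.18 ± 0.29, edgeR adjusted p 0.000773). Tfap2b, a transcription factor of the AP-2 family with roles in crest and face, was at 30.2, 33.4 and 32.8 CPM in the heterozygous libraries and 16.7, 20.8 and 18.4 CPM in the homozygous libraries (−0.78 ± 0.10, edgeR adjusted p 0.000773). Both calls were kept in all 6 leave-one-out fits. They were the only calls on the lists of crest glia (1 of 14, median −0.20) and migrating crest (1 of 21, median −0.12), which share Sox10 and Erbb3. On the crest list 7 of 21 genes had every homozygous library below every control (8.2% of all genes did), among them Sox10, the master regulator of crest glia, at 43.9, 28.4 and 35.4 against 19.5, 24.5 and 27.2 CPM (−0.59 ± 0.18, edgeR adjusted p 0.195, named after its value was seen). Foxd3, an early crest factor, was at 0.05 ± 0.25. In the leave-one-out fits the crest median ran from −0.20 to −0.06 and that of crest glia from −0.29 to −0.11. With total counts only the crest median was 0.09 and that of crest glia −0.02, both below the shift of 0.19 of all genes. In bulk tissue, fewer cells of a type and less RNA per cell cannot be told apart.

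Of the other large falls described here, Pou3f4 alone stands on a list. Pou3f4, a class III POU transcription factor of neural tube and otic tissue, was at 2.93, 2.95 and 2.62 CPM in the heterozygous libraries and 1.13, 1.20 and 1.28 CPM in the homozygous libraries (log2 −1.22 ± 0.25, edgeR adjusted p 0.0329), and its 3 paralogs were also negative but not called, for a list median of −0.48. L1cam, an adhesion molecule of axons, was at 6.38, 7.18 and 5.76 against 3.38, 3.49 and 3.11 CPM (−0.95 ± 0.15, edgeR adjusted p 0.00551), and Cpne5, a calcium-dependent lipid-binding protein, at 12.8, 11.2 and 11.99 against 6.91, 5.21 and 5.401 CPM (−1.04 ± 0.16, edgeR adjusted p 0.00344). None of these 3 overlapped between the groups. L1cam and Cpne5 kept their calls in all 6 fits without 1 library, but Pou3f4 lost its call in each of them (adjusted p up to 0.148, log2 −1.28 to −1.18). The noncoding RNA AA465934 was at 8.73, 10.3 and 10.6 against 3.08, 6.47 and 3.04 CPM, with homozygous replicate 2 apart from the other 2 homozygous libraries (−1.21 ± 0.24, edgeR adjusted p 0.0348), and kept its call only without homozygous replicate 2 (adjusted p up to 0.195 in the other fits).

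Map2, a dendritic microtubule protein (−0.54 ± 0.11), Syt7, a calcium sensor of vesicle release (−0.56 ± 0.12), and Sept3, a neuronal septin (−0.45 ± 0.09), fell by smaller amounts, as did Mab21l2, a gene of eye and midbrain development (−0.75 ± 0.15). The transporter gene Abca5 (−0.87 ± 0.16), the kinase gene Cdk18 (−0.78 ± 0.17), the phospholipase gene Plcg2 (−0.51 ± 0.11) and the mannosyltransferase gene Dpy19l3 (−0.47 ± 0.09) completed the larger falls, with edgeR adjusted p between 0.0148 for Abca5 and 0.049 for Plcg2. In the plot of these genes every homozygous library lies below every control, yet the margin is thin for some of them. Map2 was at 24.5, 29.3 and 32.4 against 19.5, 22.2 and 17.9 CPM, and Sept3 at 70.9, 76.1 and 67.3 against 58.6, 53.8 and 44.2 CPM. The margin was wider for Cdk18, at 10.3, 8.74 and 6.58 against 5.03, 4.64 and 5.06 CPM. None of the 8 was called in more than 2 of the 6 fits without 1 library, with adjusted p up to 0.102 for Abca5 and up to 0.213 for Syt7. All 8 lost their call without homozygous replicate 3. Homozygous replicate 3 was the lowest of its group for 15 of the 23 falls, against 39.0% of all genes with at least 10 counts.

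**Figure D4:**
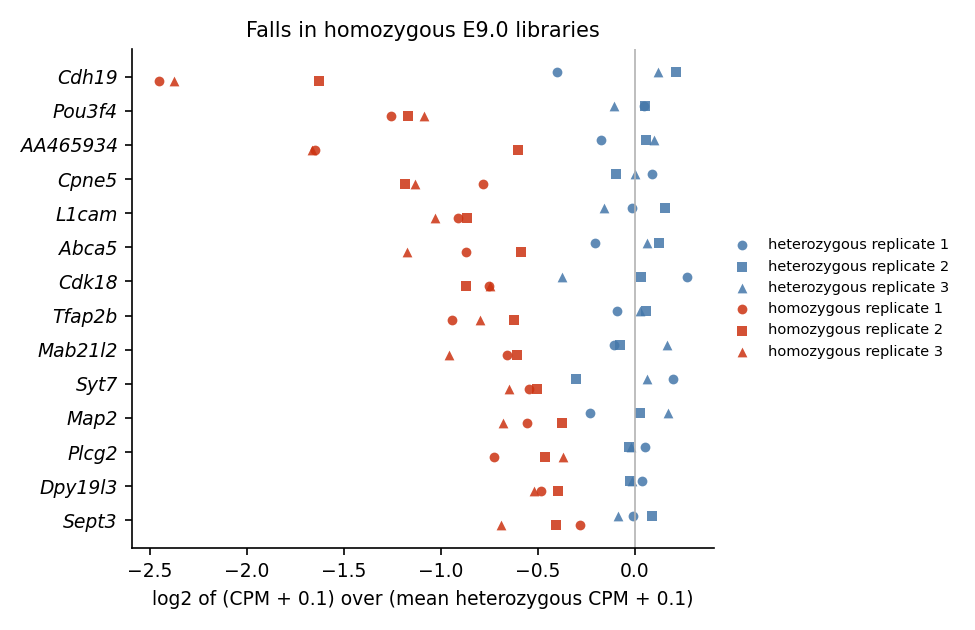
A set of 14 genes that fell, in the 6 E9.0 libraries (blue heterozygous, red homozygous), as log2 of CPM plus 0.1 over the heterozygous mean plus 0.1. Cdh19 stands farthest left, at −2.18 in the fit, and the homozygous symbols of the lower genes approach the controls.

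Outside the p53 lists 43 genes rose, and the largest folds were at low level. Homozygous replicate 3 was the highest of its group for 34 of the 43 (79.1%), against 35.4% of all genes with at least 10 counts. Svop, a transporter-like protein of synaptic vesicles, had 4, 1 and 7 counts in the heterozygous and 27, 32 and 55 in the homozygous libraries, a rate ratio of 11.6 (95% exact interval 6.38 to 23.1, counting error only; edgeR adjusted p 0.000292). The neighbouring leukotriene B4 receptors Ltb4r2 and Ltb4r1 had at most 3 counts in any control, and their rate ratios were 11.7 (5.36 to 30.1) and 11.2 (4.82 to 31.8). For all 3 genes every homozygous library was above every control. Sec14l5, a lipid transfer-like protein (7.56, 3.85 to 16.5), Zfp750, an epidermal transcription factor (5.69, 3.01 to 11.7), the cytokine gene Lif (4.87, 2.88 to 8.68) and the sugar kinase gene Shpk (4.81, 2.92 to 8.30) followed, with edgeR adjusted p between 0.00529 for Lif and 0.0349 for Shpk. 1700007K13Rik, a gene of no assigned role here, was close to the threshold (log2 2.42 ± 0.52, edgeR adjusted p 0.0479). The filter on low counts asked for enough counts in as few as 3 libraries. Genes this low could therefore be tested through the homozygous libraries alone. They were then picked for their fold, so the intervals describe the values and carry no test.

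Svop, Ltb4r2 and Lif kept their calls in all 6 leave-one-out fits, whereas Ltb4r1, Shpk and 1700007K13Rik kept theirs only without homozygous replicate 2 and Sec14l5 and Zfp750 in 2 fits, with adjusted p up to 0.184, 0.225, 0.228, 0.128 and 0.121. All 5 lost it without homozygous replicate 3. By mean level, Svop and Shpk lie between 1 and 5 CPM and the other 6 between 0.5 and 1 CPM, and the lowest levels leaned upward over all genes. The median log2 change was 0.35 for 943 genes at up to 0.5 CPM, of which 0 were called, and 0.16 for 963 genes at 0.5 to 1 CPM, of which 7 were called, all higher. It was 0.04 for 2441 genes at 1 to 5 CPM and −0.02 at 5 to 20 and at 20 to 100 CPM. That the background signs given above moved the same way was not tested as a part of these rises.

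Better expressed rises outside the p53 lists included Fam212b, at 1.54, 2.30 and 3.01 CPM in the heterozygous libraries and 7.96, 7.61 and 12.6 CPM in the homozygous libraries (log2 1.98 ± 0.22, edgeR adjusted p 0.000141). Chosen after their values were seen, Crebzf, a bZIP regulator, was at 93.2, 104 and 109 against 148, 166 and 146 CPM (0.59 ± 0.06, edgeR adjusted p 0.000157). Further such genes were Klhdc7a, a kelch-repeat protein (3.59, 3.48 and 4.04 against 9.77, 8.87 and 13.9 CPM; 1.54 ± 0.18, edgeR adjusted p 0.000292), Arap2, a GTPase-activating protein of Arf6 (3.45, 4.18 and 5.50 against 10.9, 9.22 and 11.7 CPM; 1.24 ± 0.18, edgeR adjusted p 0.00165), Synm, an intermediate filament protein (6.68, 6.43 and 7.09 against 14.2, 12.3 and 16.4 CPM; 1.08 ± 0.12, edgeR adjusted p 0.000179), and Zak, a stress-activated kinase of ribosomes (37.6, 37.2 and 34.98 against 54.1, 47.6 and 54.8 CPM; 0.51 ± 0.07, edgeR adjusted p 0.00113). All 6 separated the genotypes in every library and kept their calls in all 6 fits without 1 library. Of the 43 rises outside the p53 lists, 13 did so, against 17 of the 21 on them and 4 of the 23 falls.

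Lists of the tissues at stake held few calls. Facial ectomesenchyme had 0 of 23 called, with a median of 0.07 that ran from −0.16 to 0.28 over the other scalings and fits, and its members pointed both ways: Alx1, a factor of the frontonasal crest, was at 10.4, 12.7 and 11.2 against 5.48, 7.84 and 4.996 CPM (−0.90 ± 0.25, edgeR adjusted p 0.157) and Lhx6, a factor of the jaw, at 1.76, 2.25 and 1.55 against 3.31, 2.81 and 2.43 CPM (0.62 ± 0.27, edgeR adjusted p 0.337). The list of the midbrain and hindbrain boundary also had 0 of 15 called, with a median of −0.33 and 7 genes whose homozygous libraries all lay below the controls (46.7%, against 8.2% of all genes). That median ran from −0.50 to −0.20 in the leave-one-out fits and from −0.36 to −0.11 over the other scalings and fits. En2, the engrailed factor of that boundary, was at 25.5, 22.4 and 35.3 CPM in the heterozygous libraries and 7.89, 12.5 and 7.22 CPM in those of the mutant. These values were apart by a factor of 2.99 in the fit, but the libraries of each varied and it was not called (−1.58 ± 0.33, edgeR adjusted p 0.0907). Fgf18, a growth factor of the same region, was at 2.13, 1.98 and 2.06 against 1.35, 0.802 and 1.15 CPM (−0.92 ± 0.25, edgeR adjusted p 0.117). At E9.5 both were called, with log2 values of −4.64 ± 0.39 and −0.87 ± 0.18, and the stage difference was not (edgeR adjusted p 0.133 and 0.982).

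Early neurons and ganglia had 0 of 26 called (median 0.10), with Isl1, a factor of sensory and motor neurons, at 0.39 ± 0.10 and the neuronal tubulin gene Tubb3 at −0.28 ± 0.08 (edgeR adjusted p 0.117 and 0.171). Neural progenitors (0 of 18, median −0.04), forebrain (0 of 19, −0.05) and hindbrain (0 of 14, 0.21) were without a call, and so were head mesoderm (0 of 10, 0.22) and endothelium (0 of 12, 0.20), where every tested gene was positive. In the leave-one-out fits the hindbrain median ran from −0.0082 without heterozygous replicate 3 and 0.050 without homozygous replicate 1 up to 0.26, that of neural progenitors from −0.12 to 0.0033 and that of the forebrain from −0.16 to 0.027. The surface and pharyngeal epithelium list had 0 of 15 called but 8 without overlap above (53.3%, against 9.07% of all genes), among them Nkx2-3, a factor of pharyngeal endoderm (7.26, 6.70 and 7.01 against 12.02, 9.39 and 11.7 CPM; 0.66 ± 0.15, edgeR adjusted p 0.064), and Krt8, a keratin of simple epithelia (0.33 ± 0.10). Its summed level was 486, 412 and 435 CPM in heterozygous and 520.5, 531 and 546 CPM in homozygous libraries, which do not overlap. Heart muscle markers summed to 269, 200.4 and 78.1 CPM in heterozygous and 393, 135 and 191 CPM in homozygous libraries, and their median of 0.49 became −0.14 without homozygous replicate 1.

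Of the remaining lists, those of macrophages (5 tested), primitive erythroid cells (10), yolk sac endoderm (6) and sex-linked genes (5) had 0 called. By the same rule of the 2 smallest p-values, the log2 values were 0.22 ± 0.08 for Hes1 and −0.25 ± 0.12 for Msi1 among neural progenitors, −0.39 ± 0.22 for Otx1 in the forebrain list, and 0.38 ± 0.14 for Hoxa2 and 0.22 ± 0.13 for Hoxb2 in that of the hindbrain. They were 0.28 ± 0.09 for Tek and 0.37 ± 0.13 for Tie1, both endothelial receptors, 0.51 ± 0.21 for the head mesoderm factor Tcf21, 0.46 ± 0.19 for the heart factor Nkx2-5 and 0.57 ± 0.30 for the macrophage receptor Mrc1. Erythroid markers were negative for 9 of 10, but the groups overlapped for the embryonic globin Hbb-y, at 197, 166 and 259 against 131, 111 and 273 CPM. Polr1c, a subunit of RNA polymerases I and III, stood at 0.23 ± 0.07, the ribosome factor Rrp12 at 0.17 ± 0.08 and the hypoxia gene P4ha2 at 0.36 ± 0.14. The edgeR adjusted p of these genes ran from 0.148 for Polr1c to 0.803 for Hbb-y.

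Proliferation genes were near level, with 0 of 22 called for replication (median −0.03, Pole −0.27 ± 0.09, Mcm5 0.14 ± 0.06) and 0 of 22 for mitosis (median −0.06, 19 negative, Bub1 −0.21 ± 0.08, Mki67 −0.23 ± 0.11). Of the cytosolic ribosomal protein genes 0 of 27 were called, while 26 had positive log2 values, 16 had every homozygous library above every control (59.3%, against 9.07%), and the median was 0.15, or 0.10 after GC and length were corrected for. Rps14 had the largest change among them, at 682, 806 and 908 against 1022, 1048 and 1064 CPM (0.39 ± 0.09, edgeR adjusted p 0.0643). Homozygous libraries also favoured short and GC-rich transcripts slightly, with medians of 0.05 for the shortest and −0.05 for the longest of 5 equal groups of genes, and of 0.05 for the highest and −0.05 for the lowest of 5 groups by GC. Ribosome biogenesis (0 of 26, median 0.06), hypoxia and glycolysis (0 of 24, 0.04) and other genes of craniofacial syndromes (0 of 12, 0.06) held no call either.

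**Figure D5:**
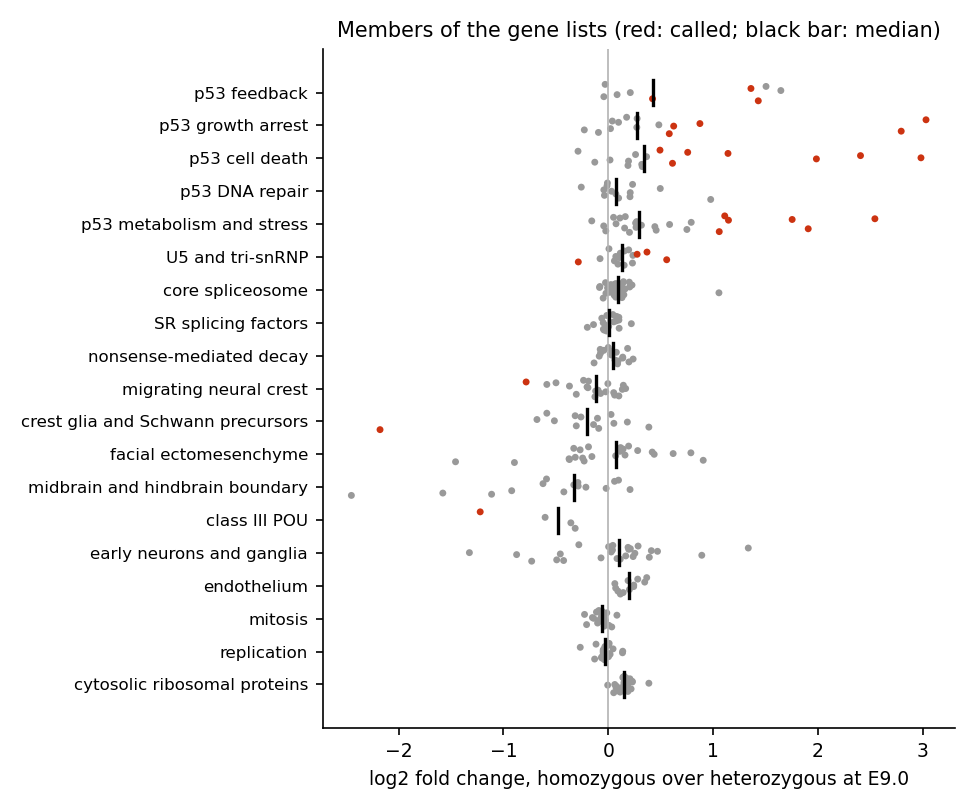
Log2 fold change at E9.0 of the tested members of 19 gene lists (1 point per gene, red if called, a black bar at the median). The p53 lists other than DNA repair hold most red points, at up to 3.03, the crest, boundary and class III POU lists have medians left of 0, and the ribosomal protein genes form a narrow band at a median of 0.15.

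The called genes were spread over the genome. Chromosome 11, which carries Eftud2, held 13 of the 87 (14.9%) and 8.20% of the tested genes, but of 183 tested genes within 5 Mb of Eftud2 only C130046K22Rik was called (0.546%, 0.91 ± 0.17, edgeR adjusted p 0.0152). Ccng1, Lif, Shpk and Zfp750 are on that chromosome but farther away. Several named genes overlap a gene of the opposite strand in GENCODE M21, and since the strand setting of the counts is not given in the sources used here, reads of the partner could be counted with them. Svop overlaps Usp30, whose log2 change was 0.01 ± 0.10, and Mab21l2 overlaps Lrba, at −0.01 ± 0.07. Synm overlaps Gm45102 and Ttc23, C130046K22Rik overlaps Gosr2, and the changes of these partners are not given here. Cdkn1a, Ptprv, Tap1, Cpne5, Cdk18, Syt7, Map2, Sart1 and Eftud2 overlap antisense or neighbouring genes that were not tested here, and Ltb4r1 and Ltb4r2 are close in sequence as well as in position.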

How the data were processed

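RNA sequencing counts of 12 libraries in 4 groups of 3 were used. The authors deposited 1 table of raw counts per gene symbol (24421 rows, not normalized), made with cutadapt, STAR, featureCounts and MultiQC on mm10, per the submitters' processing notes. Versions, annotation and strand setting are not given in the sources used here. All columns were matched to samples by name. In R 4.3.3, filterByExpr over all 12 libraries kept 14810 genes, and the 9611 others held at most 0.0778% of any library. Libraries of 13914543 to 24302660 counts at E9.0 were scaled with TMM and tested with edgeR 4.0.16 (robust quasi-likelihood F test, 1 mean per group over all 12 libraries, two-sided, Benjamini-Hochberg over all tested genes, threshold 0.05). Alternatives used limma 3.58.1 and DESeq2 1.42.0, other scalings, filters and corrections, and each E9.0 library left out. The scripts were tested on simulated data.

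The text names 5 genes by rule (Cdkn1a, Ccng1, Trp53, Mdm2 and Eftud2), the 15 called genes with the largest change in each direction whose groups did not overlap and whose mean count reached 10, called list members and, for most lists without a call, 1 or both of the 2 members with the smallest p. Certain genes chosen this way are not reported here. The comparison and the 34 gene lists were chosen with earlier results of these data known. Positions come from GENCODE M21 (GRCm38), in which 23384 symbols matched directly, 678 through a synonym and 359 not at all, and promoters from RefSeq (GRCm38.p6). Rate ratios carry exact 95% intervals for counting error only.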

Additional observations from a re-analysis of the deposited data

Results flagged for a closer look

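The effect of the genotype differed between the stages for 4 of the genes named, by the interaction test of edgeR adjusted over all tested genes, and each effect was smaller at E9.5 than at E9.0. Phlda3, which restrains Akt, went from a log2 fold change of 2.41 ± 0.21 at E9.0 to 0.48 ± 0.18 at E9.5, a difference of −1.93 ± 0.28 (adjusted p 0.0213). The thiamine transporter gene Slc19a2 went from 1.75 ± 0.15 to 0.44 ± 0.14, a difference of −1.32 ± 0.21 (adjusted p 0.0213). Ccng1, the cyclin G1 gene, went from 1.43 ± 0.11 to 0.46 ± 0.10, a difference of −0.97 ± 0.15 (adjusted p 0.0213). Svop, at low level throughout, went from 3.51 ± 0.42 to 0.40 ± 0.29, a difference of −3.11 ± 0.53 (adjusted p 0.0377). At E9.5 Ccng1 was called (adjusted p 0.0312) and the others were not (0.136 for Slc19a2, 0.261 for Phlda3, 0.632 for Svop). The heterozygous mean of all 4 genes was higher at E9.5 than at E9.0, which is a description without a test. For Ccng1 the heterozygous mean was 35.7 ± 7.31 at E9.0 and 76.4 ± 5.14 CPM at E9.5 (SD, n = 3 here and for the next genes), and the homozygous mean 97.3 ± 4.05 and 105 ± 5.88 CPM. For Phlda3 the heterozygous means were 4.82 ± 0.998 and 12.8 ± 1.46 CPM and the homozygous 26.1 ± 8.32 and 17.8 ± 1.57 CPM, and for Slc19a2 7.04 ± 0.913 and 14.3 ± 1.61 CPM against 24.1 ± 5.94 and 19.4 ± 0.264 CPM. For Svop they were 0.216 ± 0.141 and 1.04 ± 0.174 CPM against 2.52 ± 1.03 and 1.37 ± 0.0967 CPM. Phlda3, Slc19a2 and Ccng1 stand on a p53 list. Stage and sequencing depth go together in these libraries, with 13914543 to 24302660 counts at E9.0 and 24165537 to 31172708 at E9.5, and their part in the difference was not tested.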

How the results depend on the processing

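The number of genes called at E9.0 (87, with 64 higher and 23 lower) was within 1.5 times under RLE or upper-quartile factors, without robust dispersions, with only the E9.0 libraries (64) or a mean of at least 50 counts (69). A like number did not mean the same genes. With only the E9.0 libraries 13697 genes were tested, and 49 of the 64 calls were among the 87. With a mean of at least 50 counts 67 of the 69 were. It was 229 with DESeq2 (141 higher, 88 lower), 51 with limma-voom (42 and 9), 176 with a GC and length correction (116 and 60), 34 at an adjusted p under 0.01 (30 and 4) and 17 in a test against a 1.5-fold change (16 and 1). The lower count was 44 with no filter, 14 with totals without Rn45s and 3 with total counts only. Leaving out 1 library gave 38 to 86 in all, 33 to 68 higher and 5 to 20 lower. The numbers 1 to 3 are not stated to mark litters, and same-numbered libraries correlated at 0.109, 0.0307 and 0.0297, so they were not treated as pairs. A replicate block gave 100 calls (71 higher, 29 lower), of which 71 were among the 87, and with the GC and length correction 241 (151 and 90). The stage difference had 10 calls, 73 with DESeq2 and 21 with the block.

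Eftud2 at E9.0 stayed negative but was not past the threshold with total counts only (−0.082, adjusted p 0.751), only the E9.0 libraries (−0.28, 0.141), the replicate block (−0.28, 0.0545), at an adjusted p under 0.01 or against a 1.5-fold change (−0.29, 0.0193 and 1), and it ran from −0.31 to −0.25 over the fits without 1 library. Of the values of named genes under all alternatives, 1805 kept direction and side of the threshold, 219 fell below it, 38 passed it and 5 changed sign: Srpk1 (0.0016) and Pdk1 (0.049) with total counts only, Trp53 (−0.044 without heterozygous replicate 3, and up to 0.19 without another library), and Eif2s3y at E9.0 (0.10) and Uty at E9.0 (0.15) without homozygous replicate 3 (down to −1.20 and −1.13 without another). The cause was not tested. At this depth, values of genes under 1 CPM rest on few counts in each library.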
